A study of Citrus maxima and Citrus sinensis with 8 samples.

Results

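Leaf mRNA of control seedlings, kept without the aluminium treatment of the study, was compared between 2 citrus species, Citrus grandis (pummelo) and Citrus sinensis (sweet orange). The organism label of the first is its synonym, Citrus maxima. The comparison used 4 of the 8 libraries of the series, chosen by their labels: 2 C. grandis control libraries set against 2 C. sinensis control libraries. The other 4 libraries came from seedlings of the same species kept with aluminium for 18 weeks, 2 libraries per species. They are used here to show the species difference in separate plants and to test whether it changed with aluminium. They also enter an alternative fit of the control comparison. Each library is 1 biological replicate made from pooled leaves of 5 seedlings, so it gives the average of 5 plants and no plant-to-plant spread. The labels give neither a cultivar nor an age beyond the seedling stage, and describe the controls only as control.

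Pummelo is one of the ancestral citrus species, and sweet orange is an old hybrid with pummelo and mandarin ancestry. Many gene copies of sweet orange are therefore close to those of pummelo, while others are of mandarin descent. The mRNA of a green leaf is typically dominated by a small number of very abundant transcripts, many of them for photosynthesis, with most other transcripts at moderate levels behind them. The study was designed around aluminium tolerance, and the control leaves give the difference between the species without the metal.

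Expression was given as FPKM, the fragments on a gene scaled by gene length and by the library total, for the same 30297 gene IDs in both species. Behind the FPKM stood totals of 16443205 and 18755844 reads in the C. grandis control libraries, against 19794247 and 19670766 reads in the C. sinensis control libraries. Replicates differed by a median of 0.24 on the log2 scale in C. grandis control leaves and 0.12 in C. sinensis control leaves, and 688 and 83 genes lay at least 2-fold apart between replicates. Differences are C. grandis minus C. sinensis on log2(FPKM + 1), a scale on which low FPKM give too small a change. The genes tested were the 16168 with a mean of at least 1 FPKM over the 4 control libraries. Reads of both species were assigned to 1 gene set, so that reads lost because a gene differs in sequence and a lower RNA level cannot be told apart. In whole leaves, fewer cells of a type and less RNA per cell cannot be told apart either. The IDs are not paired with gene names in the sources used here, so that no gene list or leaf cell type marker could be matched and no function is attached to any ID.

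Gene expression differed widely between the species. With limma at an adjusted p below 0.05, 7214 of 16168 genes (44.6%) were called, of which 4455 (27.6%) were higher and 2759 (17.1%) were lower in C. grandis. The fit takes 1 spread per gene for both species, though the replicates lay farther apart in C. grandis, by a median of 0.24 against 0.12. Both C. grandis libraries lay above both C. sinensis libraries for 7743 genes (47.9%) and below them for 4772 (29.5%). The lower genes differed by more: the median log2 difference was 0.91 among genes called higher and -1.16 among genes called lower. A difference of at least 2-fold was seen in 1942 of the genes called higher (43.6%) and in 1654 of those called lower (59.9%). At 4-fold or more the directions were nearly even, with 555 genes higher and 560 lower, and likewise at 32-fold or more, with 26 higher and 27 lower. The excess of higher genes lay mostly among differences under 2-fold on the scale of FPKM + 1.

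The balance of higher and lower genes depended on the scaling of the libraries. Over all genes tested the median log2 difference was 0.17, and each of the 4 possible pairs of a C. grandis and a C. sinensis library gave between 0.16 and 0.18. With each library centred on its median, which moved the median difference to -0.01, 2950 genes were called higher in C. grandis, against 3540 called lower. Quantile normalization gave 3380 higher calls and 3188 lower ones at a median of 0.04. The share of higher genes among those called was thus 61.8% as deposited, 45.5% after centring and 51.5% after quantile normalization. The number of calls rested on both C. sinensis libraries: without replicate 1 or replicate 2 of that group, limma called 760 and 750 genes, with the spread then coming from the C. grandis pair alone. Nearly all of these, 757 and 748, were also called in the same direction with all 4 libraries.

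**Figure D1:**
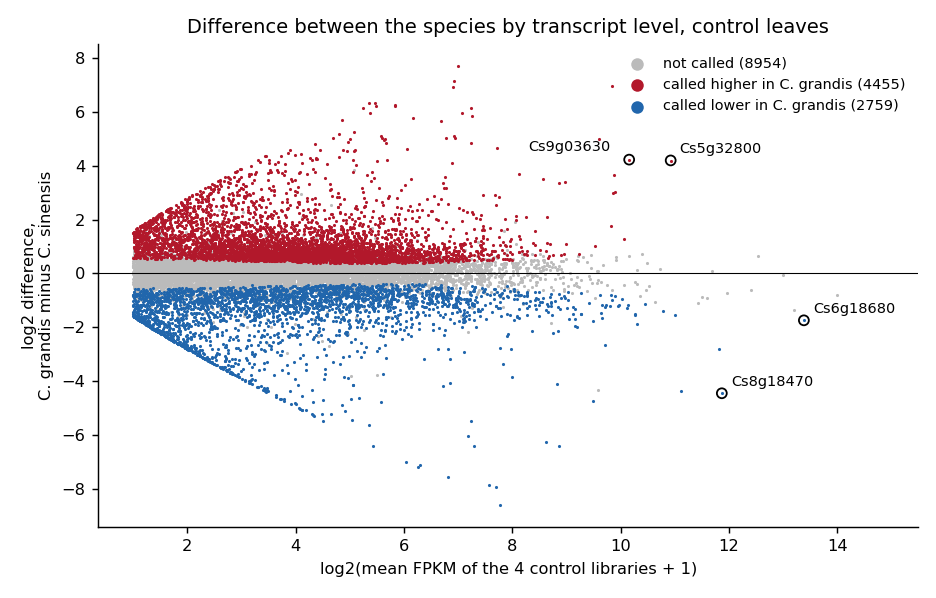
Each point is 1 of the 16168 genes tested, with its log2(mean FPKM + 1) over the 4 control libraries on the horizontal axis and its log2 difference, C. grandis minus C. sinensis, on the vertical axis. Red points are the 4455 genes called higher in C. grandis, blue points the 2759 called lower and grey points the 8954 not called, and the rings mark the 4 genes described by name.

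For the 8954 genes not called, the width of the interval says how much difference could have gone unseen. In 7124 of them (79.6%) the 95% confidence interval from limma lay wholly within 2-fold in either direction on the scale of FPKM + 1. For genes of low FPKM such an interval can hold more than a 2-fold change in FPKM itself, so that these are not shown to be equal within 2-fold. The interval was wider in the other 1830, and in 163 of these the 2 species stood at least 2-fold apart without passing the test. Conversely, 1210 called genes had an interval within 2-fold on the scale of FPKM + 1, so that many calls concern modest differences on that scale. The differences repeated when taken, without a fit, in 2 pairs of libraries with no library in common. The first pair was C. grandis replicate 1 minus C. sinensis replicate 1, and the second C. grandis replicate 2 minus C. sinensis replicate 2. Their log2 differences had a Pearson r of 0.88 and a Spearman rho of 0.82 across 16168 genes. In 82.4% of the genes the sign was the same in both pairs. These genes share their 2 libraries within each pair and are not independent replicates.

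The most abundant transcripts made up less of the pool in C. grandis. The 10 most abundant genes of each library held 8.55% and 9.3% of all FPKM in C. grandis control leaves, against 13.9% and 14.3% in C. sinensis control leaves. The top 100 held 20.8% and 22.9% in C. grandis and 30% and 30.6% in C. sinensis, and the top 1000 held 50.8% and 53% in C. grandis and 58.9% and 59.1% in C. sinensis. At each of these depths both C. grandis libraries lay below both C. sinensis libraries. The mean share of the top 100 was 21.9% ± 1.48 in C. grandis and 30.3% ± 0.424 in C. sinensis (SD, n = 2 each, exact two-sided permutation p = 0.333, the smallest that 2 against 2 libraries can give). Above 500 FPKM there were 95 and 114 genes in C. grandis and 128 and 129 in C. sinensis. The order turned at lower levels, with 1106 and 1149 genes above 100 FPKM in C. grandis and 1065 and 1044 in C. sinensis. Over the genes tested, log2(FPKM + 1) had a median of 3.76 and 3.75 in the C. grandis libraries and of 3.57 in both C. sinensis libraries.

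In leaves with aluminium the top 100 held 23.7% and 24% in C. grandis and 25.6% and 27.8% in C. sinensis, again without overlap. The count of genes above 500 FPKM had the opposite order there, with 114 and 116 genes in C. grandis and 111 and 101 in C. sinensis. The number of genes expressed was similar in control leaves: 15509 and 15542 genes reached 1 FPKM in C. grandis and 15698 and 15671 in C. sinensis.

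**Figure D2:**
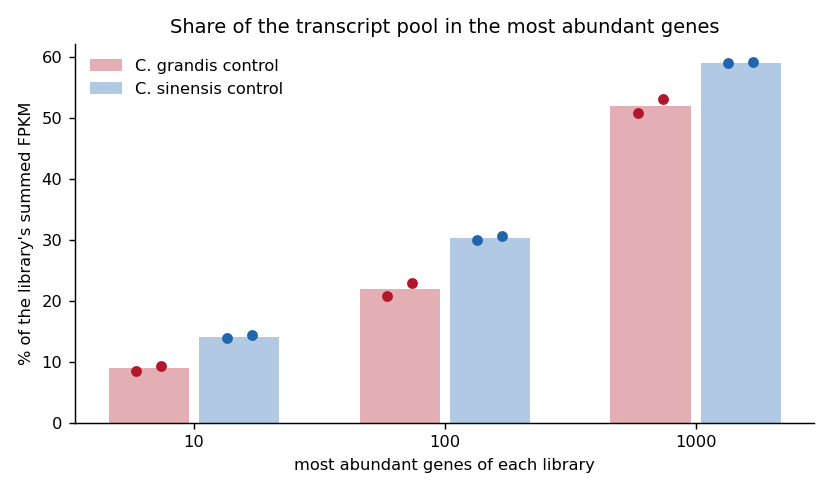
Percent of each control library's summed FPKM held by its 10, 100 and 1000 most abundant genes, with 1 point per library and bars at the mean of the 2 libraries of C. grandis (red) and C. sinensis (blue). In each group of genes both C. grandis points lie below both C. sinensis points, at 100 genes at 20.8% and 22.9% against 30% and 30.6%.

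The genes at the top were largely the same, at different levels. Ranked by mean FPKM in each species, 7 of the top 10, 61 of the top 100 and 716 of the top 1000 genes (71.6%) were shared. Of the 100 most abundant genes of C. sinensis, 53 were called lower in C. grandis and 1 was called higher. Those 100 genes held 18% and 17.6% of all FPKM in C. grandis, against 30% and 30.5% in C. sinensis. Of the 100 most abundant genes of C. grandis, 25 were called higher in C. grandis and 19 lower, close to the 27.6% and 17.1% over all genes tested. Choosing genes because they are high in a species favours calls in that direction, and these counts are given as a description. Genes grouped by their calls in these same libraries differ in share by that choice, so that the next shares only describe how much of the pool they make up. Over the whole pool, the 4455 genes called higher held 28.8% and 32.2% of all FPKM in C. grandis and 12.8% and 12.6% in C. sinensis. The 2759 genes called lower held 14% and 11.7% in C. grandis and 31.2% and 32.1% in C. sinensis. The 8954 genes not called held between 55.1% and 56.9% in every control library.

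Among single genes, the 2 higher and 2 lower with the largest difference in mean FPKM are described here, out of the called genes with no overlap between the species. Genes with a larger difference that did not pass the test are not among them. Cs5g32800, with a length of 1188 bp, stood at 2664 and 4721 FPKM in the C. grandis control libraries and at 225 and 165 FPKM in the C. sinensis control libraries. It was the 10th and 5th most abundant gene in C. grandis and ranked 383 and 562 in C. sinensis. It averaged 3693 ± 1454 FPKM in C. grandis, against 195 ± 42.3 FPKM in C. sinensis (SD, n = 2 each). The log2 difference was 4.20 with an SE of 0.35 (95% confidence interval 3.29 to 5.10, limma adjusted p = 0.00137). Per library total, reads were 19.3-fold higher in C. grandis, with a 95% counting interval of 18.9 to 19.7. The counting interval leaves out the spread between replicates, which the limma interval includes. With aluminium Cs5g32800 stood at 3799.8 and 3774 FPKM in C. grandis, against 454 and 634 FPKM in C. sinensis, so that it was high in all C. grandis libraries and lower in all C. sinensis libraries.

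Cs9g03630, with a length of 1438 bp, had 1417 and 2936 FPKM in C. grandis control leaves and 99.9 and 116 FPKM in C. sinensis control leaves. The C. grandis replicates lay apart from each other, and neither came near the C. sinensis libraries. Its log2 difference was 4.23 (SE 0.37, 95% confidence interval 3.28 to 5.19, limma adjusted p = 0.00156). In reads it was 20.7-fold higher in C. grandis (95% counting interval 20.1 to 21.2, without the spread between replicates). In leaves with aluminium its levels were 977 and 1010.4 FPKM in C. grandis, against 80.6 and 151 FPKM in C. sinensis, a log2 difference of 3.16.

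Cs6g18680, with a length of 1542 bp, was the 2nd most abundant gene in both C. sinensis control libraries. It stood at 5564 and 4355 FPKM in C. grandis control leaves, against 15917 and 16942 FPKM in C. sinensis control leaves. It alone made up 0.922% and 0.686% of all FPKM in C. grandis and 2.43% and 2.58% in C. sinensis, and it still ranked 4th and 7th in C. grandis. The log2 difference was -1.74 (SE 0.53, 95% confidence interval -3.09 to -0.39, limma adjusted p = 0.0478). This call did not hold throughout: the limma adjusted p was 0.0831 after quantile normalization, 0.0914 with a pseudocount of 0.1 and 0.29 without the filter on low FPKM. Without C. sinensis replicate 1 or 2 it was 0.652 and 0.661, and over all 13 alternatives it ranged from 0.00246 to 0.661. With aluminium Cs6g18680 had 4176 and 4372 FPKM in C. grandis, against 8259 and 12147 FPKM in C. sinensis, again lower in both C. grandis libraries.

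Cs8g18470, with a length of 1254 bp, was the 6th and 5th most abundant gene of C. sinensis and ranked 345 and 140 in C. grandis. Its levels were 233 and 453 FPKM in C. grandis control leaves and 7090.2 and 7189 FPKM in C. sinensis control leaves. The log2 difference was -4.45 (SE 0.39, 95% confidence interval -5.44 to -3.47, limma adjusted p = 0.00148). In reads the gene was 20.4-fold lower in C. grandis (95% counting interval 20.1 to 20.7, without the spread between replicates). The species were nearer each other with aluminium, at 2484 and 2588 FPKM in C. grandis, against 5348 and 5714 FPKM in C. sinensis. Without C. sinensis replicate 1 or 2, the limma adjusted p of Cs5g32800, Cs9g03630 and Cs8g18470 lay between 0.0946 and 0.116. In the other 11 alternatives run, these 3 genes were called in the same direction.

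**Figure D3:**
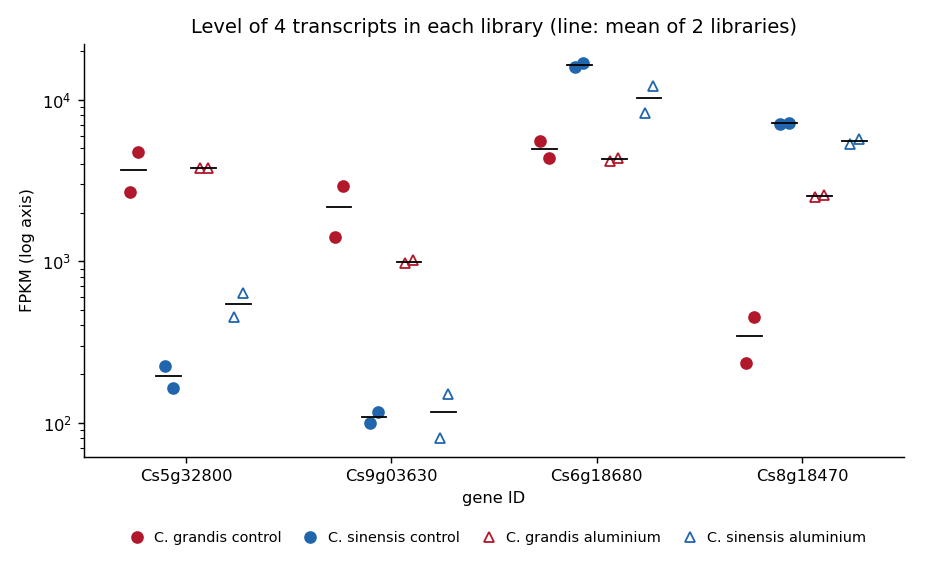
FPKM of the 4 named genes in every library, on a log axis, with C. grandis in red and C. sinensis in blue, circles for control and triangles for aluminium leaves, and a line at the mean of each group's 2 libraries. In control leaves the species do not overlap for any of the 4 genes, and for Cs8g18470 the C. grandis circles at 233 and 453 FPKM lie far below the C. grandis triangles at 2484 and 2588 FPKM.

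The direction of the difference varied with the level of expression. Among the 112 genes with a mean of at least 500 FPKM, 13 (11.6%) were called higher and 43 (38.4%) lower in C. grandis, and the median log2 difference was -0.61, or between -0.60 and -0.50 in the 4 pairs of libraries. Between 20 and 100 FPKM the shares were 31% higher and 15.1% lower among 4690 genes, with a median of 0.21. Between 5 and 20 FPKM they were 29.1% higher and 14.2% lower among 5888 genes. In the class from 5 to 20 FPKM the excess of higher genes depended on the scaling, with 19.1% higher and 18.7% lower after median centring and 19.7% and 18.5% after quantile normalization. Without C. sinensis replicate 1 that class had 1.17% called higher and 1.66% lower, and without replicate 2 1.12% and 1.63%. Among the 1674 genes between 1 and 2 FPKM they were 22% and 22.5%, with a median of 0.01. The replicates of C. grandis also lay farther apart at the top, by a median of 0.46 from 500 FPKM against 0.23 between 20 and 100 FPKM, while in C. sinensis the medians were 0.07 and 0.10. The part of this spread in the result was not tested. From 500 FPKM, quantile normalization gave 21.4% higher and 23.2% lower, and without C. sinensis replicate 1 or 2 no more than 0.893% of the 112 genes were called in either direction. In leaves with aluminium the median of the 112 genes was -0.28.

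Short genes differed more than long ones. Among the 711 genes under 500 bp the median size of the log2 difference, without its sign, was 0.90, and it declined over each longer class to 0.38 among the 2128 genes of 3000 bp or longer. The share called lower in C. grandis was 30.5% under 500 bp, 26.7% from 500 to 1000 bp, 20.8% from 1000 to 1500 bp, 15.8% from 1500 to 2000 bp, 12.1% from 2000 to 3000 bp and 7.85% from 3000 bp. The share called higher lay between 25% and 29.4% over the same classes. From 3000 bp, median centring gave 15% higher and 12.3% lower, and leaving out C. grandis replicate 1 gave 15.8% lower. Without C. sinensis replicate 1 or 2, 15% and 14.6% of the genes under 500 bp were called lower, and 0.799% of those from 3000 bp in both cases. The share called lower was thus higher under 500 bp than from 3000 bp without either C. sinensis library, at smaller shares. The same 2 fits called 2.53% and 2.95% of the genes under 500 bp higher, and 0.658% and 0.564% of those from 3000 bp. This held at moderate levels too: between 5 and 100 FPKM, 29.5% of 305 genes under 500 bp and 6.53% of 1440 genes from 3000 bp were called lower. Short genes have fewer reads at a given FPKM, and their replicates lay farther apart, by a median of 0.36 in C. grandis and 0.21 in C. sinensis under 500 bp, against 0.23 and 0.09 from 3000 bp. The part of read depth and of sequence differences in the length trend was not tested. In control leaves, the median log2 difference climbed from -0.07 under 500 bp to 0.24 from 3000 bp. The size of this climb varied between the pairs of control libraries. Pair medians ran from -0.14 to 0.00 under 500 bp and from 0.14 to 0.33 from 3000 bp. Set against the median of all genes, they ran from -0.31 to -0.15 under 500 bp and from -0.02 to 0.14 from 3000 bp. In leaves with aluminium, the medians of the length classes lay between -0.08 and 0.04. Whether the climb differed between the treatments was not tested.

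**Figure D4:**
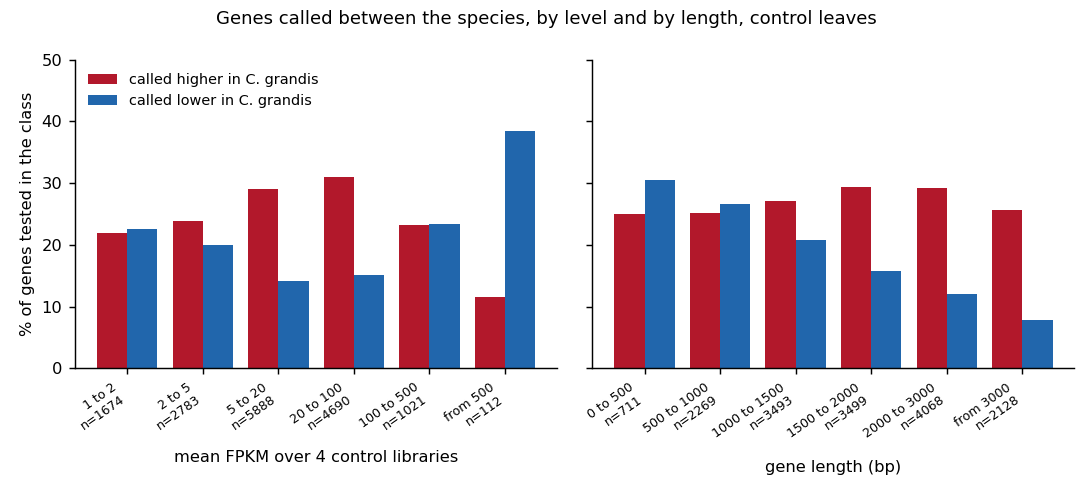
Bars show the percent of genes called higher (red) and lower (blue) in C. grandis control leaves, by mean FPKM over the 4 control libraries and by gene length. The share called lower falls from 30.5% under 500 bp to 7.85% from 3000 bp, and from 500 FPKM it is 38.4%, above the 11.6% called higher.

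The difference also varied with the numbering of the gene IDs. Nearly all IDs belong to 9 numbered series, Cs1g to Cs9g, or to a group that begins with orange1.1t. The median log2 difference was 0.33 among 1617 genes of Cs3g and 0.32 among 1998 genes of Cs5g. It was 0.03 among 1189 genes of Cs4g, 0.02 among 1248 genes of Cs6g and 0.09 among 1898 genes of Cs7g. In Cs3g 35.8% of the genes were called higher and 11.5% lower in C. grandis, while in Cs6g the shares were 20.7% and 21%. Set against the median of all genes, Cs3g and Cs5g lay 0.16 and 0.15 above it, and Cs4g and Cs6g 0.14 and 0.15 below it. In the 4 pairs of libraries the gap was between 0.14 and 0.19 for Cs3g, between 0.14 and 0.15 for Cs5g, between -0.14 and -0.12 for Cs4g and between -0.16 and -0.13 for Cs6g. In the separate aluminium libraries the same 4 series lay at 0.15, 0.15, -0.16 and -0.16 from the median of all genes. Among genes of at least 2000 bp and between 5 and 100 FPKM, the medians were 0.38 for Cs3g and 0.37 for Cs5g, and 0.14 for Cs4g and 0.17 for Cs6g. Cs7g and Cs9g both had 0.19 there, little above Cs6g. Over all series, genes of that level had medians of 0.25 from 2000 to 3000 bp and 0.27 from 3000 bp. Over the 4 pairs of libraries the medians in this class ran from 0.08 to 0.22 for Cs4g and from 0.10 to 0.26 for Cs6g. The 542 genes with an ID of another prefix had the largest differences of any ID group, with a median size of 1.03 without the sign. Of these, 27.5% were called higher and 31% lower, against 27.6% and 17.1% over all genes tested. Only 26 of them were at least 2000 bp long and between 5 and 100 FPKM. Those 26 had a median size of 0.52, against 0.50 for Cs3g in the same class, with 34.6% called higher and 3.85% lower.

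Within a series, the difference was also followed along the order of the IDs. Each series was cut, in the order of its ID numbers, into windows of 100 tested genes, which gave 127 windows, with the remainder at the end of each series left out. Their median log2 differences ran from -0.19 to 0.51, and 37 windows (29.1%) had a median of at least 0.3 while 24 (18.9%) had one of 0 or less. With windows of 200 genes these shares were 29% and 9.68%, and with windows of 50 genes 30% and 21.2%. Over the 4 pairs of libraries the median of a window moved by 0.10 in the typical case. Window medians from the 2 separate pairs of control libraries had a Pearson r of 0.88 and a Spearman rho of 0.89 over the 127 windows. Those from control leaves and from aluminium leaves, which share no library, had a Pearson r of 0.88 and a Spearman rho of 0.87. The windows share genes and gene lengths between these comparisons, and the correlations are descriptions. Median centring moves every window by the same amount, so that the side of 0 depends on the scaling while the gaps between windows do not. With windows of 50 genes the r with aluminium leaves was 0.83, and with windows of 200 genes it was 0.91.

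In some series neighbouring windows lay at a similar level, and the stretches named next were chosen for that after their values were seen. In other places adjacent windows jumped, as in Cs7g, where windows 11 to 15 had medians of -0.06, 0.22, -0.04, -0.08 and 0.26. In Cs5g the first 17 windows, 1700 genes, all had medians between 0.20 and 0.48, and 72% of their genes had a positive difference, against 59.8% of all genes tested. The last 2 windows of Cs5g had medians of -0.05 and 0.03. In Cs1g windows 1 to 4 lay between -0.09 and 0.10 and windows 5 to 12 between 0.24 and 0.51. The highest window, the 9th of Cs1g, had a median of 0.51, with 50% of its genes called higher in C. grandis and 4% lower. The lowest, the 11th of Cs4g, had a median of -0.19, with 17% higher and 31% lower. In Cs9g windows 1 to 5 lay between 0.00 and 0.17 and windows 6 to 8 between 0.39 and 0.51. In aluminium leaves the medians of the same stretches were 0.20 and -0.12 for the 2 parts of Cs5g, -0.16 and 0.18 for those of Cs1g and -0.06 and 0.16 for those of Cs9g, where single windows of the second stretch lay between -0.05 and 0.36.

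**Figure D5:**
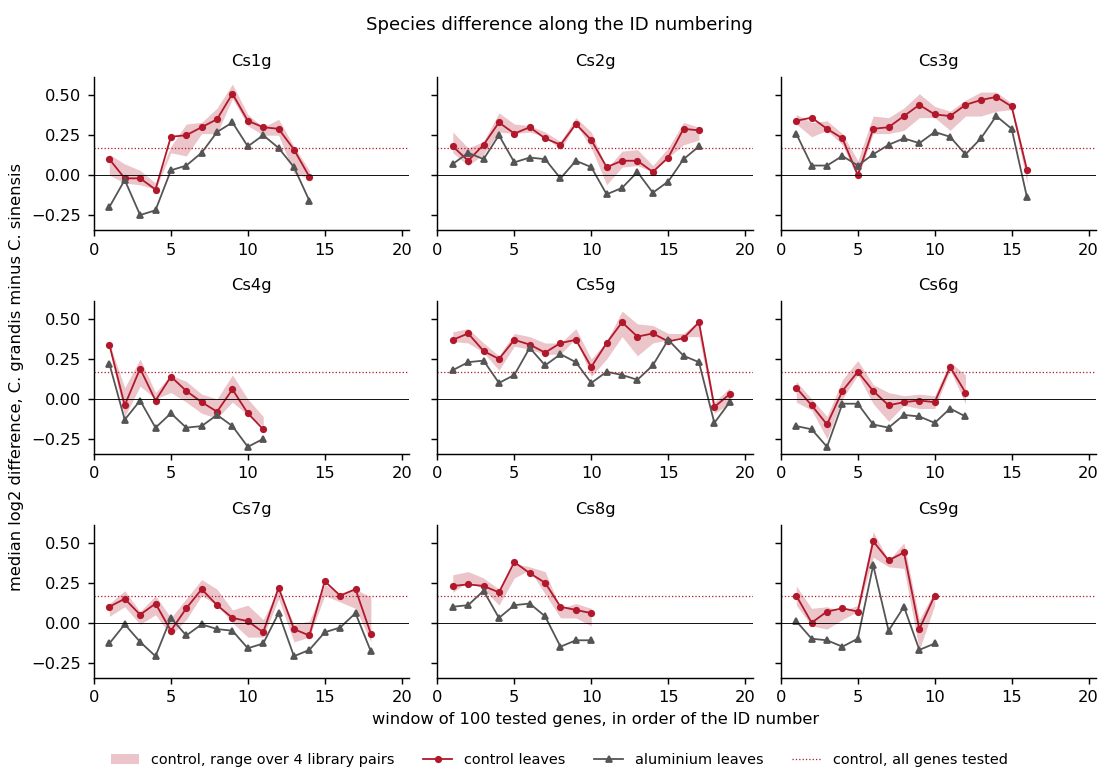
Median log2 difference, C. grandis minus C. sinensis, in windows of 100 tested genes in the order of their ID numbers, for the 9 numbered series, in control leaves (red, with a band for the range over the 4 pairs of libraries) and in aluminium leaves (grey). The dotted line is the median of all genes tested in control leaves, 0.17. Windows 1 to 17 of Cs5g lie between 0.20 and 0.48 in control leaves and the last 2 at -0.05 and 0.03. The window medians of the 2 treatments had a Pearson r of 0.88. Single windows differed, as in window 7 of Cs9g at 0.39 in control leaves and -0.05 in aluminium leaves.

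Large differences recurred in neighbouring genes. Of 807 genes in the numbered series with a difference of at least 4-fold and a next tested gene, 92 (11.4%) were followed by a gene that also differed 4-fold or more in the same direction. At 50 genes apart this was so for 19 of 780 (2.44%). Across all 13314 adjacent pairs the log2 differences correlated only weakly, with a Pearson r of 0.13 and a Spearman rho of 0.12, against 0.04 and 0.05 at 50 genes apart. Genes called at 2-fold or more in the same direction formed 1248 runs for higher and 1013 for lower in C. grandis, single genes included. Of these runs, 51 and 32 held 3 or more consecutive genes, while 1036 and 848 were single genes. How many such runs a random order of the genes would give was not tested. Adjacent genes can be copies of each other that share reads, which the sources used here do not resolve, and such genes are uncertain.

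Some genes had reads almost only in 1 species. In 187 genes both C. grandis control libraries reached 1 FPKM while each C. sinensis control library held fewer than 3 reads, and 90 of them were without any read in C. sinensis. The reverse was seen for 491 genes, of which 339 had no read in C. grandis. In either list, reads lost because a gene differs in sequence and a lack of RNA cannot be told apart. Such loss need not be equal in both directions, and the species behind the gene set was not given in the sources used here. The part of such loss in the excess of 491 over 187 genes in these lists was not tested. Their levels were similar and mostly low: the 187 genes had a median of 3.08 FPKM in C. grandis and the 491 genes a median of 3.14 FPKM in C. sinensis, and 25 and 69 of them reached 10 FPKM. For a gene of the median length, 1620 bp, 3 reads are worth 0.0936 to 0.113 FPKM, depending on the library. IDs of another prefix made up 52 of the 187 and 118 of the 491, against 542 of the 16168 genes tested and 891 of all 30297 IDs. In leaves with aluminium the same one-sided pattern was seen for 78 of the 187 genes (41.7%) and for 372 of the 491 (75.8%).

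The same comparison in leaves with aluminium, made on the same 16168 genes in libraries with no sample in common, called 6447 genes (39.9%), with C. grandis higher in 3049 and lower in 3398. The C. grandis aluminium replicates were closer to each other than any other pair, with a median difference of 0.07. Their reads differed by slightly more than counting error, with a mean chi-square of 1.81 per gene, where counting alone gives 1, against 64 for C. grandis control, 10.5 for C. sinensis control and 89.6 for C. sinensis aluminium replicates. The labels describe them as separate pools of seedlings, and whether they are was not tested. If they came from 1 pool, the spread in the fits that use them would be too small. Without either of the C. grandis aluminium libraries limma called 0 genes, with 4390 and 4440 at an unadjusted p below 0.05, and the counts called in aluminium leaves therefore rest on that pair.

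Differences called in control leaves mostly had the same sign in aluminium leaves. Of the 4455 genes higher in C. grandis control leaves, 91.5% had a positive difference with aluminium, with medians of 0.53 in aluminium leaves and 0.91 in control leaves. Of the 2759 lower genes, 95.8% had a negative difference, with medians of -1.05 with aluminium and -1.16 in control leaves. Over all genes tested 79.8% had the same sign, and the median was 0.02 with aluminium and 0.17 in control leaves. The genes of these lists were selected on their control values, which favours larger differences in control leaves. Chosen in aluminium leaves instead, the 3049 higher genes had medians of 0.79 with aluminium and 0.84 in control leaves, and the 3398 lower genes -0.99 and -0.86. Among the genes at least 4-fold apart in control leaves, 96.4% of the 555 higher and 99.3% of the 560 lower ones kept their sign. Opposite calls were made in aluminium leaves for 26 of the genes called higher and 26 of those called lower.

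Whether the species difference itself changed was tested with limma on all 8 libraries, as the difference in control leaves minus that in aluminium leaves. At an adjusted p below 0.05, 352 of 16168 genes (2.18%) were called. The 4 genes described by name were chosen on their control values, which enter this test and favour larger differences in control leaves. All 4 had a smaller difference with aluminium. Among them the change was called for Cs8g18470 alone, at -3.33 (SE 0.45, limma adjusted p = 0.026). For Cs5g32800 the change was 1.38 (SE 0.45, limma adjusted p = 0.162), for Cs9g03630 1.08 (SE 0.56, limma adjusted p = 0.326) and for Cs6g18680 -0.51 (SE 0.47, limma adjusted p = 0.576). The number of calls depended on single libraries. It was 23 without C. sinensis control replicate 1, and 0 without C. sinensis control replicate 2, C. grandis aluminium replicate 1 or C. grandis aluminium replicate 2, with 2323, 1932 and 1900 genes at an unadjusted limma p below 0.05. It grew to 1105 and 597 when C. grandis control replicate 1 or 2 was left out. With C. sinensis aluminium replicate 1 or 2 left out it grew to 1330 and 780.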

How the data were processed

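The authors deposited FPKM, 1 table per group with a column per library, per the file headers. Per the submitters' processing notes, HTSeq, TopHat2, Bowtie and edgeR 1.18.0 were among the tools, with no role stated. Aligner settings, the genome build and the annotation were not given in the sources used here. Libraries were grouped by the species and treatment in their labels.

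The deposited FPKM were used without further scaling. Species were compared on log2(FPKM + 1) by limma 3.58.1 (R 4.3.3), on the 4 control libraries and on genes with a mean of at least 1 FPKM over them, with 2 residual degrees of freedom and an expression trend in the moderated spread. P-values are two-sided and adjusted over all genes tested by the Benjamini-Hochberg method. The aluminium libraries were fitted in the same way on the same genes, and the change between treatments on all 8 libraries. Replicates are separate pools of seedlings per the labels, and p-values measure only the spread between these samples. The members, lists, classes and tests were chosen with earlier results of these data known.

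Whole reads were recovered from the ratios of FPKM between libraries and genes, to within 0.01 of a whole number, for all 22312 IDs above 0 in several libraries. At least 99.93% of each library total was recovered on genes. The largest of the 8 totals was 1.2 times the smallest. Counting intervals, bounds and 1 alternative test use these reads and cover counting error only, since PCR copies are not independent molecules.

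Since no names were available, the rule for named genes took the 2 higher and 2 lower IDs with the largest difference of mean FPKM among called genes without overlap between the species. Gene lists and leaf cell type markers were not analysed here. Alternatives were a pseudocount of 0.1, no filter, a filter at 5 FPKM, median centring, quantile normalization, all 8 libraries in the fit, no trend, the replicate number as a block, each library left out, and voom on recovered reads. The test was checked on simulated data. Python 3.11.15 with pandas 2.3.3, numpy 2.4.6 and scipy 1.17.1 was used for the summaries.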

Additional observations from a re-analysis of the deposited data

Results flagged for a closer look

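The species difference of Cs8g18470 was not the same in the 2 treatments. This gene was chosen on its values in control leaves, which favours a larger difference there. The gene had 233 and 453 FPKM in C. grandis control leaves and 7090.2 and 7189 FPKM in C. sinensis control leaves. With aluminium it had 2484 and 2588 FPKM in C. grandis and 5348 and 5714 FPKM in C. sinensis. The log2 difference between the species was -4.45 in control leaves and -1.12 in aluminium leaves, a change of -3.33 (SE 0.45, limma adjusted p = 0.026 in the fit on all 8 libraries). After median centring the change was -3.52 (limma adjusted p = 0.0251) and after quantile normalization -3.63 (limma adjusted p = 0.0204). It lay between -3.81 and -2.85 when each library was left out in turn. The call was lost without C. sinensis control replicate 1 or 2 (limma adjusted p = 0.15 and 0.145) and without C. grandis aluminium replicate 1 or 2 (limma adjusted p = 0.162 and 0.171).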

How the results depend on the processing

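In control leaves the 7214 calls became 750 to 9067 when 1 library at a time was left out, with 212 to 5403 higher and 538 to 3664 lower in C. grandis. Median centring gave 2950 higher. The other alternatives kept the counts of higher and lower genes within 1.5 times, and no alternative called a gene in the opposite direction. The median difference of 0.17 became 0.19 with a pseudocount of 0.1 and with voom on recovered reads, 0.07 without the filter, 0.21 with a filter at 5 FPKM, -0.01 after centring and 0.04 after quantile normalization. In aluminium leaves, leaving out each library in turn, an alternative chosen after seeing the data, gave 0 to 9854 calls, 0 to 4946 higher and 0 to 4908 lower. The 0 comes from limma without either C. grandis aluminium library, with 4390 and 4440 genes at an unadjusted p below 0.05. Alternatives for level and length classes, ID series and windows were also chosen after seeing the data. With the replicate block 4103 genes were called higher in C. grandis control leaves and 2776 lower by limma, and of the named genes the call of Cs6g18680 was lost (adjusted p = 0.174). Deviations of same-numbered libraries from their group means had an r of 0.01 over 16168 genes, and with 2 pairs the number is not shown to mark a shared batch. The limits are 2 libraries per group, 2 residual degrees of freedom and 1 gene set for both species. At the median gene length 3 reads are at most 0.113 FPKM, so that low genes are the least certain. For each of these shifts the cause was not tested beyond the fewer samples, the other scaling or the other genes tested that make up the alternative.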
